A study of Mus musculus with 12 samples.

Results

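Spermatogonial stem cells keep the testis supplied with sperm by renewing themselves while some of their daughters commit to differentiation. The 6 genes described here, Zbtb16, Sall4, Nanos2, Nanos3, Foxo1 and Taf4b, encode regulators that hold germ cells in the undifferentiated state or keep the stem cell pool alive. They were taken by name from the 26219 genes of the deposited expression table, and all 6 were found there and passed the filter on low values. Zbtb16, Sall4 and Foxo1 are DNA-binding transcription factors, Taf4b is a subunit of the general transcription factor TFIID, and Nanos2 and Nanos3 are RNA-binding proteins that repress translation or stability of their target mRNAs.

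RNA was measured in 12 libraries from 6 mouse lines, each with 2 culture replicates. The 2 lines GSC_1 and GSC_2 were established from independent P7 (postnatal) testes as germline stem cells (GSCs), the cultured form of the spermatogonial stem cell. The 4 lines GSCLC_1, GSCLC_2, GSCLC_3 and GSCLC_4 are their counterparts, called GSC-like cells (GSCLCs), obtained from reconstituted testes; the series title traces them to mouse pluripotent stem cells. In condition 1, the source of GSCLC_1 and GSCLC_4, the reconstituted testes spent 3 weeks at 34°C. In condition 2, the source of GSCLC_2 and GSCLC_3, they spent 2 weeks at 37°C followed by 1 week at 34°C. All lines have the background C57BL/6 x 129/SvJcl and the genotype AcrAct_EGFP reporter in the labels, and were cultured in StemPro-34 SFM with 1% FBS, GDNF, bFGF, LIF and EGF. The line is the independent unit below, and no line stands for more than 1 derivation. The kind of line and the testis it came from coincide, so that their effects cannot be told apart.

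Levels are in RPM, the reads of a gene scaled to the same total in every library. The RPM steps corresponded to 3031465 to 4643822 counted reads per library, and every member value was a whole number of reads within 0.1 read. The germ cell markers Ddx4 and Dazl were high throughout, with no library under 361.8 and 1200 RPM. Differences between groups were computed on log2(RPM + 1), which understates changes of low genes, and are given with the standard error (SE) from limma and its Benjamini-Hochberg adjusted p over 11788 tested genes. The threshold was an adjusted p of 0.05.

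No regulator passed the threshold between GSCLC and GSC lines. Sall4 and Foxo1 stood at about 0.706 and 0.75 times their GSC level in GSCLC lines, Nanos2 and Nanos3 at 0.709 and 0.761 times, and Zbtb16 and Taf4b at 1.19 and 1.16 times. These ratios come from mean log2(RPM + 1) and differ from ratios of mean RPM, most of all for Nanos2, at 10.2 RPM against 13.2 RPM in GSC lines. In this comparison 0 of 6 members passed, against 3.02% of all tested genes. The median difference of the 6 was -0.41 on the log2 scale, against -0.01 over all tested genes.

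**Figure D1:**
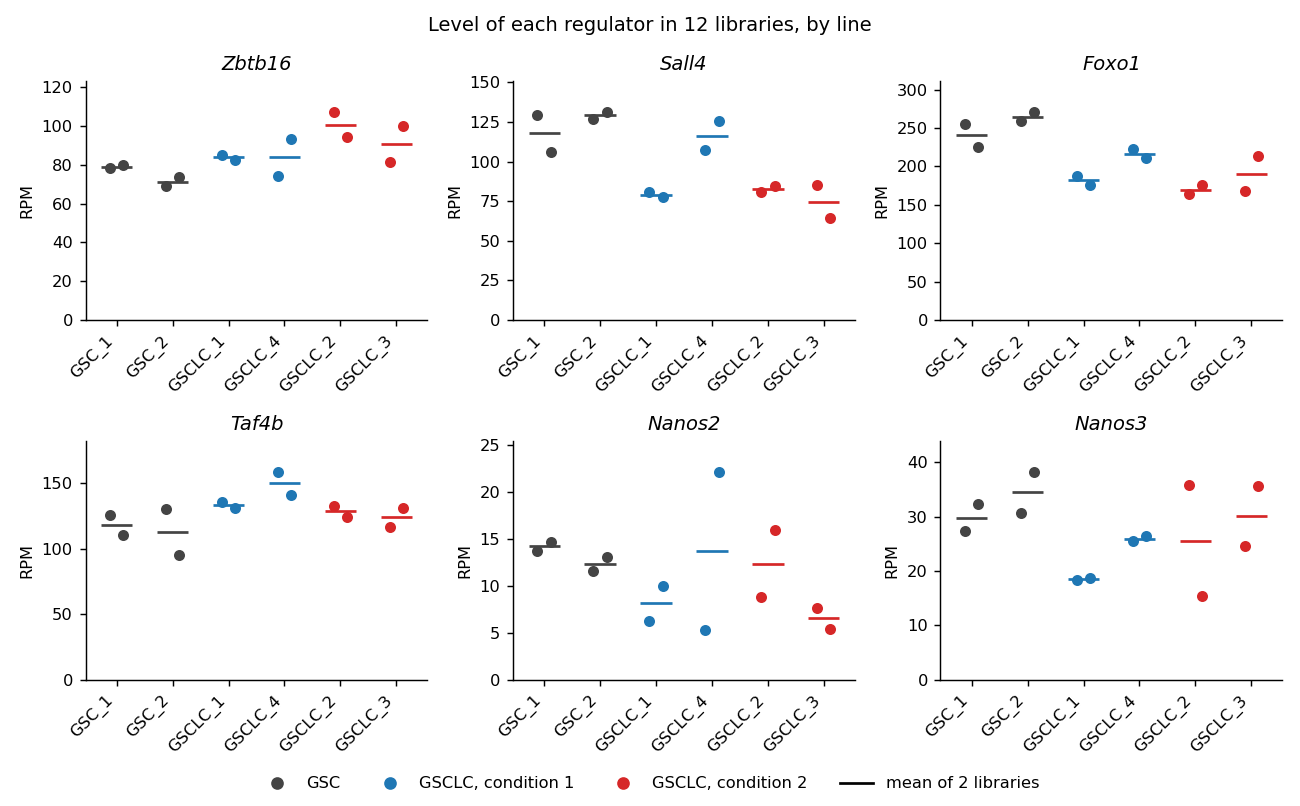
Level of each regulator in RPM (vertical axes, starting at 0) in the 12 libraries, grouped by line; points are single libraries and bars the mean of the 2 libraries of a line. Foxo1 lay between 225 and 271 RPM in the GSC libraries and at or below 223 RPM in the GSCLC libraries, and Nanos2 spread from 5.26 to 22.1 RPM among the GSCLC libraries.

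Zbtb16, also called PLZF, is a BTB zinc finger repressor that spermatogonial stem cells need for long-term self-renewal. It lies on chromosome 9 at 48651797 to 48836225 on the minus strand of GRCm38. In the GSC lines it stood at 78.2 and 79.9 RPM in GSC_1 and at 68.9 and 73.5 RPM in GSC_2. The condition 1 lines gave 85.3 and 82.7 RPM in GSCLC_1 and 74.4 and 93.3 RPM in GSCLC_4, and the condition 2 lines gave 107 and 94.2 RPM in GSCLC_2 and 81.4 and 100.0 RPM in GSCLC_3. In 7 of 8 GSCLC libraries the level was above every GSC library, with replicate 1 of GSCLC_4 inside the GSC range. Line means averaged 75.1 ± 5.56 RPM in GSC (SD, n = 2) and 89.8 ± 7.88 RPM in GSCLC lines (SD, n = 4). The difference of 0.25 ± 0.14 had an adjusted p of 0.4, and its 95% interval, which is not adjusted for the number of genes, ran from -0.06 to 0.55.

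Sall4, a zinc finger factor that binds ZBTB16 and recruits the NuRD repressor complex, lies on chromosome 2 at 168748332 to 168767201 on the minus strand. The GSC lines held 129 and 106 RPM in GSC_1 and 127 and 131 RPM in GSC_2. Among the GSCLC lines, GSCLC_1 held 80.7 and 77.5 RPM, GSCLC_2 80.5 and 84.8 RPM and GSCLC_3 85.4 and 64.2 RPM, whereas GSCLC_4 held 107 and 125 RPM. Both libraries of GSCLC_4 thus lay inside the GSC range, and the other 6 GSCLC libraries were below every GSC library. Over lines, Sall4 averaged 123 ± 8.06 RPM in GSC (SD, n = 2) and 88.2 ± 18.9 RPM in GSCLC (SD, n = 4). The difference of -0.50 ± 0.18 did not pass (adjusted p = 0.167), with an interval of -0.89 to -0.12. Without line GSCLC_4 it was -0.64 with adjusted p = 0.0278, and over 29 alternative settings adjusted p ran from 0.0278 to 0.739.

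Foxo1 encodes a forkhead factor that is active in the nucleus when PI3K and AKT signalling is low and that supports the maintenance of spermatogonial stem cells. Foxo1 stood at 255 and 225 RPM in GSC_1 and 258.5 and 271 RPM in GSC_2. GSCLC_4 was closest to these with 223 and 211 RPM, followed by GSCLC_3 with 168 and 213 RPM, GSCLC_1 with 188 and 176 RPM and GSCLC_2 with 164 and 176 RPM. Foxo1 was the only member whose 8 GSCLC libraries all lay below the 4 GSC libraries, a full separation that 7.07% of the tested genes showed in either direction. Line means were 252 ± 17.1 RPM (SD, n = 2) and 189.7 ± 19.9 RPM (SD, n = 4). The difference of -0.42 ± 0.13 had an adjusted p of 0.114 and an interval of -0.69 to -0.14. It passed in 2 of 29 alternative settings, with adjusted p = 0.0493 without line GSCLC_4 and 0.0448 on single libraries with the line as a random block, and adjusted p otherwise ran up to 0.699.

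Foxo1 lies on chromosome 3 at 52268337 to 52350109 on the plus strand (RefSeq, GRCm38.p6). The GENCODE M21 model ends further downstream, and its last 300 bases share runs of 30 bases with transcripts of 390 other genes. The 300 bases before the RefSeq end share such runs with 0 other genes, and the sources used here do not give the model that the counts follow. At the GENCODE ends of the other 5 members no other gene shared such a run. For all 6 no exon of another gene on either strand overlapped the last 300 bases of the GENCODE model. The RefSeq models of Zbtb16 and Taf4b also end further downstream than the GENCODE models, and those RefSeq ends were not searched for shared runs. Among the 6 members, Foxo1, Nanos2 and Nanos3 matched the RefSeq promoter table, which gives 250 bases before and 50 bases after the gene start. The Foxo1 promoter, at chr3:52268087-52268386 on the plus strand, is shown because Foxo1 had the smallest spread between culture replicates of the 6. It had a GC content of 61.3% and 31 CpG sites, more than 89.4% of 32851 promoters. In capitals are the letters of the GC box, GGGCGG or its complement CCGCCC, which occurred 5 times with 2 copies overlapping; 35.7% of all promoters held at least 1.
Foxo1: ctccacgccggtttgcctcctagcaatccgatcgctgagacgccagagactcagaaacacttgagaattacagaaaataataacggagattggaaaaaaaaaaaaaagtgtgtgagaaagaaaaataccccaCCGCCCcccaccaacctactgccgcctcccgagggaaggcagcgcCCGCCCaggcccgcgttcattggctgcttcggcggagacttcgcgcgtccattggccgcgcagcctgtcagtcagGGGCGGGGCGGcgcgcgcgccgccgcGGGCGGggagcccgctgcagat

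Nanos2 marks and maintains the most primitive spermatogonia, where the protein brings target mRNAs to the CCR4-NOT deadenylase. The gene lies on chromosome 7 at 18987524 to 18988962 on the plus strand, in 1 exon. Its promoter, at chr7:18987274-18987573 on the plus strand, is shown as a contrast to that of Foxo1, since Nanos2 had the largest spread between replicates. The GC content was 53% with 0 CpG sites, where the median promoter held 7. In capitals is TTTATA, the complement of TATAAA; 13.6% of all promoters held these letters on one strand or the other.
Nanos2: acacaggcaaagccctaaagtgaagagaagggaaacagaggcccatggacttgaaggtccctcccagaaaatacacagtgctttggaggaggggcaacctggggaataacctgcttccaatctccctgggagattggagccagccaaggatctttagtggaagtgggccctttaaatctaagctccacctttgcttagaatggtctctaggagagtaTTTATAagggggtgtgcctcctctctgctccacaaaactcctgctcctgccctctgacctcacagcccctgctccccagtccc

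Nanos2 rested on 20 to 68 reads per library, with a counting error of 12.1% to 22.4%. In the GSC libraries it was steady, at 13.7 and 14.6 RPM in GSC_1 and 11.6 and 13.0 RPM in GSC_2. The GSCLC libraries ranged more widely, with 6.28 and 9.93 RPM in GSCLC_1, 8.78 and 15.9 RPM in GSCLC_2, 7.63 and 5.39 RPM in GSCLC_3 and 5.26 and 22.1 RPM in GSCLC_4. In GSCLC_4 the replicates differed by 4.2 times, and their exact 95% Poisson intervals, which cover counting error only, were 3.26 to 8.04 and 17.1 to 28.1 RPM. Line means averaged 13.2 ± 1.33 RPM in GSC (SD, n = 2) and 10.2 ± 3.4 RPM in GSCLC (SD, n = 4). The difference of -0.50 ± 0.28 had an adjusted p of 0.41, and the interval from -1.11 to 0.12 corresponds to 0.462 to 1.09 times the GSC value of RPM + 1. The difference was -0.26 without replicate 1 of GSCLC_4, and -0.79 and -0.20 on libraries numbered 1 and 2 alone.

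Nanos3, needed for the survival of primordial germ cells and also expressed in undifferentiated spermatogonia, lies on chromosome 8 at 84173733 to 84176552 on the minus strand. The GSC libraries held 27.4 and 32.3 RPM in GSC_1 and 30.8 and 38.3 RPM in GSC_2. GSCLC_1 was the lowest line with 18.3 and 18.7 RPM, and GSCLC_4 held 25.6 and 26.4 RPM. The condition 2 lines each had replicates far apart, with 35.9 and 15.4 RPM in GSCLC_2 and 24.6 and 35.6 RPM in GSCLC_3. For GSCLC_2 the Poisson intervals were 30.2 to 42.2 and 11.7 to 19.9 RPM. Over lines the level was 32.2 ± 3.31 RPM in GSC (SD, n = 2) and 25.04 ± 4.83 RPM in GSCLC (SD, n = 4), a difference of -0.39 ± 0.21 with adjusted p = 0.377 and an interval of -0.86 to 0.07. It was -0.25 without replicate 2 of GSCLC_2, and -0.19 and -0.60 on libraries numbered 1 and 2 alone. Promoter letters of Nanos3 gave 3 CpG sites and 1 GC box.

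Since the reads come from 3′ ends, RPM is not divided by transcript length, and a ratio of 2 genes also depends on how well each end was captured, so it is read between libraries only. Nanos3 stood at 2 to 2.94 times Nanos2 in the 4 GSC libraries. In the 8 GSCLC libraries the ratio had a median of 3.07 and ran from 0.967 in replicate 2 of GSCLC_2 to 6.6 in replicate 2 of GSCLC_3. The GSC ratios thus lay within a narrow part of the GSCLC range. In replicate 2 of GSCLC_2 Nanos2 was higher and Nanos3 lower than in replicate 1 of that line, and in GSCLC_4 only Nanos2 differed between the replicates beyond counting error.

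**Figure D2:**
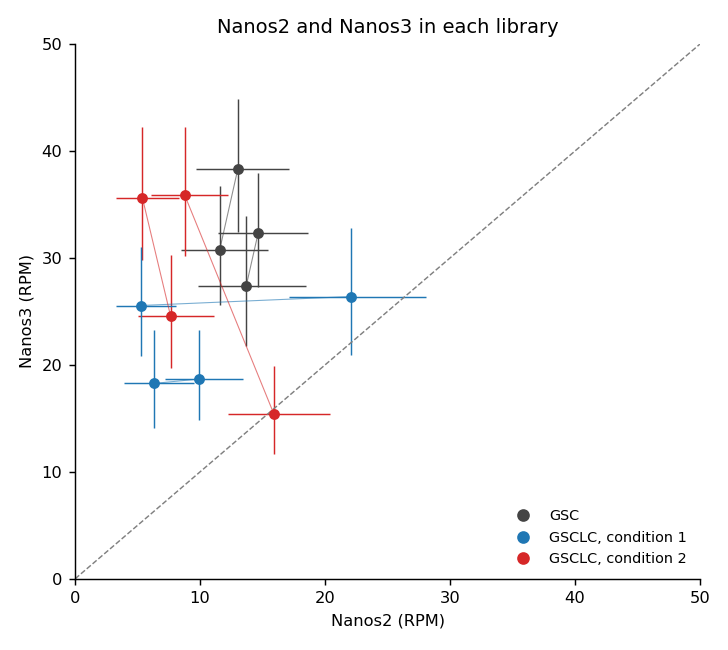
Nanos2 (horizontal axis) and Nanos3 (vertical axis) in RPM in each of the 12 libraries; bars are exact 95% Poisson intervals on the reads, thin lines join the 2 libraries of a line, and the dashed line marks equal RPM. The 4 GSC libraries lie together, while GSCLC_2 and GSCLC_4 each have 1 library near the line of equal RPM.

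Taf4b, a TFIID subunit enriched in gonads and required for the long-term upkeep of the male germline, lies on chromosome 18 at 14783201 to 14960424 on the plus strand. It stood at 125.8 and 110.2 RPM in GSC_1 and at 130.5 and 95.4 RPM in GSC_2. The GSCLC lines held 136 and 131 RPM in GSCLC_1, 133 and 124 RPM in GSCLC_2, 117 and 131 RPM in GSCLC_3 and 159 and 141 RPM in GSCLC_4. In 6 of 8 GSCLC libraries the level exceeded every GSC library. Line means were 115.5 ± 3.6 RPM in GSC (SD, n = 2) and 134 ± 11.3 RPM in GSCLC (SD, n = 4). The difference of 0.22 ± 0.13 had an adjusted p of 0.418 and an interval of -0.06 to 0.50. It was 0.11 without replicate 2 of GSC_2 and 0.33 without replicate 1 of GSC_2, and 0.08 and 0.36 on libraries numbered 1 and 2 alone. Its paralog Taf4 (Taf4a in the table), the TFIID subunit of most tissues, averaged 31.8 ± 5.02 RPM over the GSC lines and 27.6 ± 4.37 RPM over the GSCLC lines, with a difference of -0.20 ± 0.20 and adjusted p = 0.662.

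**Figure D3:**
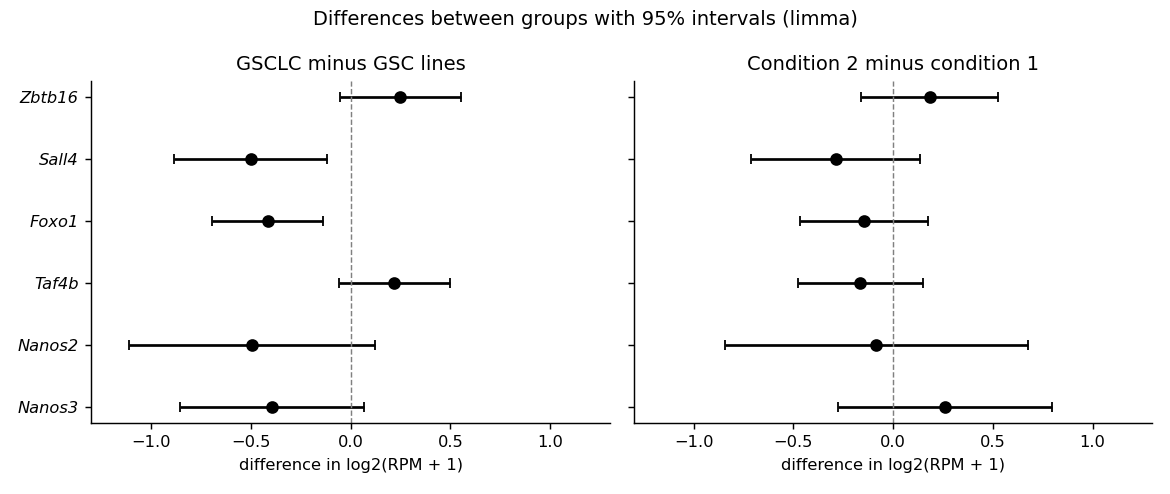
Differences in log2(RPM + 1) on the horizontal axis for each regulator, GSCLC minus GSC lines on the left and condition 2 minus condition 1 on the right, with 95% intervals from limma that are not adjusted for the number of genes. On the left the intervals of Sall4 and Foxo1 lie below 0, although neither passed after adjustment, and on the right all 6 intervals include 0.

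For 6 of 6 members the line means of log2 values of the 2 kinds of line were fully apart, as for 28.6% of all tested genes. The gap between the nearest lines of the 2 kinds was small for most, at 0.15 for Foxo1, 0.08 for Zbtb16, 0.07 for Taf4b, 0.05 for Nanos2, 0.02 for Sall4 and 0.01 for Nanos3. In RPM, 4 of 6 did not overlap, and here too the share among all tested genes was 28.6%. Nanos2 overlapped in RPM through GSCLC_2 and GSCLC_4, at 12.34 and 13.7 RPM against 12.29 RPM in GSC_2, and Nanos3 through GSCLC_3, at 30.1 RPM against 29.8 RPM in GSC_1. The 6 levels summed to 612 ± 17.9 RPM in GSC lines (SD, n = 2) and 537 ± 46.7 RPM in GSCLC lines (SD, n = 4), and GSCLC_4 at 606 RPM lay between GSC_1 at 599 and GSC_2 at 624.5 RPM.

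A second question was whether a regulator differed among the 6 lines by more than the culture replicates of a line, which limma's F test on single libraries addressed. Of the 6, 2 passed, Sall4 with F = 8.04 and adjusted p = 0.00465 and Foxo1 with F = 5.84 and adjusted p = 0.0162, against 20.0% of all tested genes. For Sall4 the lines fell into a lower run of GSCLC_3, GSCLC_1 and GSCLC_2, at 74.8, 79.1 and 82.6 RPM, and a higher run of GSCLC_4, GSC_1 and GSC_2, at 116, 118 and 129 RPM. The step of 0.48 between the runs was the only one of 5 neighbouring steps where the replicates of the neighbours did not overlap. Sall4 passed in 25 of 26 alternative settings, with adjusted p from 0.00315 to 0.053.

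Foxo1 line means stood in small steps from GSCLC_2 at 169.8 RPM through GSCLC_1, GSCLC_3 and GSCLC_4 to GSC_1 and GSC_2 at 240.3 and 264.5 RPM. Replicates overlapped in 2 of its 5 neighbouring pairs, GSCLC_1 with GSCLC_3 and GSCLC_3 with GSCLC_4. It passed in 19 of 26 alternative settings, with adjusted p from 0.00921 to 0.113, and lost the call without replicate 1 or replicate 2 of GSC_2 (adjusted p = 0.0514 and 0.0696), without replicate 1 of GSCLC_2 (0.0542), and without line GSC_2 (0.108) or line GSCLC_2 (0.0549). Zbtb16, Taf4b, Nanos2 and Nanos3 did not pass, with adjusted p of 0.257, 0.332, 0.374 and 0.237. The replicates overlapped in 4 of 5 neighbouring pairs for Zbtb16, Taf4b and Nanos2, and in 5 of 5 for Nanos3. The spread within lines was 0.63 for Nanos2 and 0.39 for Nanos3 on the log2 scale, against 0.12 to 0.16 for the other 4. Without replicate 1 of GSCLC_4, Nanos2 reached adjusted p = 0.0496, and without replicate 1 of GSCLC_2 Nanos3 reached 0.046; over all settings their adjusted p ran up to 0.671 and 0.624. These p-values rest on culture replicates and say nothing of further lines.

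The temperature regime of the reconstituted testes was the third comparison. Between conditions 2 and 1, 0 of 6 members passed and 0% of all tested genes did. Sall4 averaged 97.7 ± 26.2 RPM in condition 1 and 78.7 ± 5.56 RPM in condition 2 (SD, n = 2 each), a difference of -0.29 ± 0.19 that was -0.02 without line GSCLC_4 and -0.56 without line GSCLC_1. Zbtb16 averaged 84.0 ± 0.108 and 95.7 ± 7.01 RPM and Taf4b 142 ± 11.6 and 126 ± 3.29 RPM, and the line means in RPM of the conditions were apart for these 2 of 6 members, against 30.8% of all tested genes. Foxo1 stood at 199.3 ± 24.6 and 180.2 ± 14.7 RPM, Nanos2 at 10.9 ± 3.94 and 9.43 ± 4.12 RPM and Nanos3 at 22.2 ± 5.3 and 27.9 ± 3.16 RPM, with overlapping lines. Adjusted p was 0.933 for 5 members and 0.984 for Nanos2, and the intervals left room for differences from -0.84 to 0.79. Over 29 alternative settings the difference ran from 0.10 to 0.26 for Zbtb16, from -0.25 to -0.08 for Taf4b and from -0.30 to 0.01 for Foxo1. The conditions were also set against the GSC lines in one fit that shares these controls. Sall4 gave -0.36 ± 0.19 in condition 1 and -0.65 ± 0.19 in condition 2, Foxo1 -0.34 ± 0.15 and -0.49 ± 0.15, and Zbtb16 0.16 ± 0.15 and 0.34 ± 0.15. Nanos2 gave -0.45 ± 0.34 in condition 1 and -0.54 ± 0.34 in condition 2. For Taf4b, at 0.30 ± 0.14 and 0.14 ± 0.14, and Nanos3, at -0.52 ± 0.24 and -0.26 ± 0.24, the larger value was that of condition 1. In condition 1 0 of 6 members passed, against 0.772% of all tested genes, and in condition 2 0 of 6, against 1.4%. The lowest adjusted p was 0.148, for Sall4 and Foxo1 in condition 2.

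How alike the patterns of 2 genes were was measured as the root mean square difference of their mean-centred log2 values over the 12 libraries, which share lines and depth. The measure grows with the spread of both genes, and a gene's own spread on this scale is its distance from a gene that does not vary. This was 0.333 for Sall4, 0.242 for Foxo1, 0.181 for Zbtb16, 0.175 for Taf4b, 0.569 for Nanos2 and 0.387 for Nanos3. Sall4 and Foxo1, at 0.22, were the 1 of 15 pairs of members nearer to each other than either was to such a flat gene. Zbtb16 and Taf4b, at 0.222, and Nanos2 and Nanos3, at 0.7, were not. The share of all gene pairs that would meet this criterion was not counted, so the 1 pair cannot be set against a background. Genes other than the members lay nearer to Sall4 and to Foxo1 than these were to each other, as given next. Among 7388 genes of at least 20 RPM, the nearest to Sall4 were Actr2 (0.116), Vamp3 (0.122) and Nubp2 (0.129), and those nearest to Foxo1 were Bsg (0.0957), Glt8d1 (0.102) and Psme1 (0.115). Psme1, a proteasome activator subunit, went from 531 to 373 RPM, a difference of -0.51 ± 0.12 with adjusted p = 0.0452. Nearest to Zbtb16 were Rnf26 (0.0933), Gemin5 (0.104) and Racgap1 (0.108), and nearest to Taf4b Cdca8 (0.065), Cct3 (0.0836) and LOC100861602 (0.0946). For Nanos2 the nearest were Foxm1 (0.333), Dot1l (0.336) and Agfg2 (0.342), and for Nanos3 Hook3 (0.214), Tmem170 (0.249) and Ccdc130 (0.252). These larger distances go with the larger own spreads of Nanos2 and Nanos3. Nanos2, at a mean of 11.2 RPM over the 12 libraries, was itself below the 20 RPM of the genes searched.

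The mRNAs of protein partners of these regulators were measured alongside. Between GSCLC and GSC lines 3.02% of all tested genes passed, so that a list of 20 genes at that share would hold fewer than 1 call. Of 20 genes of the CCR4-NOT deadenylase and its NANOS-linked partners 0 passed, with a median difference of -0.02, and the scaffold Cnot1 and the germ cell factor Dnd1 stood at 0.17 ± 0.15 and -0.13 ± 0.13. Of 20 genes of the NuRD complex, of ZBTB16 corepressors and of others listed with them, such as Cul3 and Ep300, 0 passed, with a median of -0.03. The other 20 TFIID and related subunits likewise had 0 past the threshold and a median of -0.01. Of 19 tested regulators of PI3K, AKT and FOXO 0 passed, with a median of -0.06. Over all tested genes the median was -0.01.

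Relatives and targets of the regulators held a few calls, which stand against the same 3.02% of all tested genes. Among 14 tested family members Sall2, a SALL family factor, rose from 9.58 ± 5.4 to 40.9 ± 7.03 RPM (2.06 ± 0.28, adjusted p = 0.00417) and Foxo3, a forkhead factor closely related to Foxo1, fell from 83.4 ± 1.57 to 51.4 ± 2.76 RPM (-0.72 ± 0.14), also past the threshold at 0.0193. The other 12 did not pass, with a median of -0.17 over the 14. Among them, Sall1 stood at 34.7 ± 0.869 and 20.0 ± 8.53 RPM (adjusted p = 0.189), and Nanos1 at 25.2 ± 1.11 and 26.9 ± 4.45 RPM. Foxo4 did not pass the filter on low values, with at most 5.01 RPM in any library. Of 19 tested FOXO targets 1 rose and 2 fell, with a median of -0.24. Cdkn1b, which encodes the cell cycle inhibitor p27, rose from 3.26 ± 0.211 to 11 ± 4.97 RPM with adjusted p = 0.048. Only through GSCLC libraries did it pass the filter on low values. Trib1, a pseudokinase, fell from 31.6 ± 4.01 RPM in GSC lines to 11.98 ± 2.36 RPM (adjusted p = 0.0124). The remaining call was Foxo3, already given.

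Of 30 tested other regulators and markers of undifferentiated spermatogonia, 6 fell and 0 rose, with a median of -0.12, where 213 of all 11788 tested genes fell and 143 rose. The receptor genes Gfra1 and Ret for GDNF and the inhibitor gene Id4 did not pass, at -0.11 ± 0.14, -0.12 ± 0.12 and -0.38 ± 0.17. Among the 6, the lowest adjusted p values, from 0.00417 to 0.0239, were those of Bcl6b (-0.98 ± 0.14) and Lhx1 (-1.83 ± 0.26), which GDNF induces in cultured spermatogonia, of Egr2 (-1.12 ± 0.15), a zinc finger factor, and of Eomes (-1.66 ± 0.34), a T-box factor. Ddit4, which ZBTB16 induces to restrain mTORC1, stood at 70.6 ± 30.8 and 85.7 ± 13.5 RPM, a difference of 0.28 ± 0.25 with adjusted p = 0.625. Among 13 tested genes of spermatogonial differentiation, with a median of 0.02, the cyclin gene Ccnd1 fell by 1.33 and the homeobox gene Esx1 rose by 1.67. Esx1 averaged 1.245 ± 0.149 RPM over GSC and 6.15 ± 1.64 RPM over GSCLC lines. It passed the filter on low values through GSCLC libraries alone. Kit, which ZBTB16 represses, was at 35.2 ± 6.25 and 33.1 ± 7.81 RPM and Stra8, a retinoic acid target, at 12.5 ± 1.06 and 12.3 ± 6.85 RPM. Sohlh1, a differentiation factor, was at 47.9 ± 1.74 and 16.8 ± 17.4 RPM and ran from 1.25 to 65.8 RPM among the libraries (adjusted p = 0.17).

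**Figure D4:**
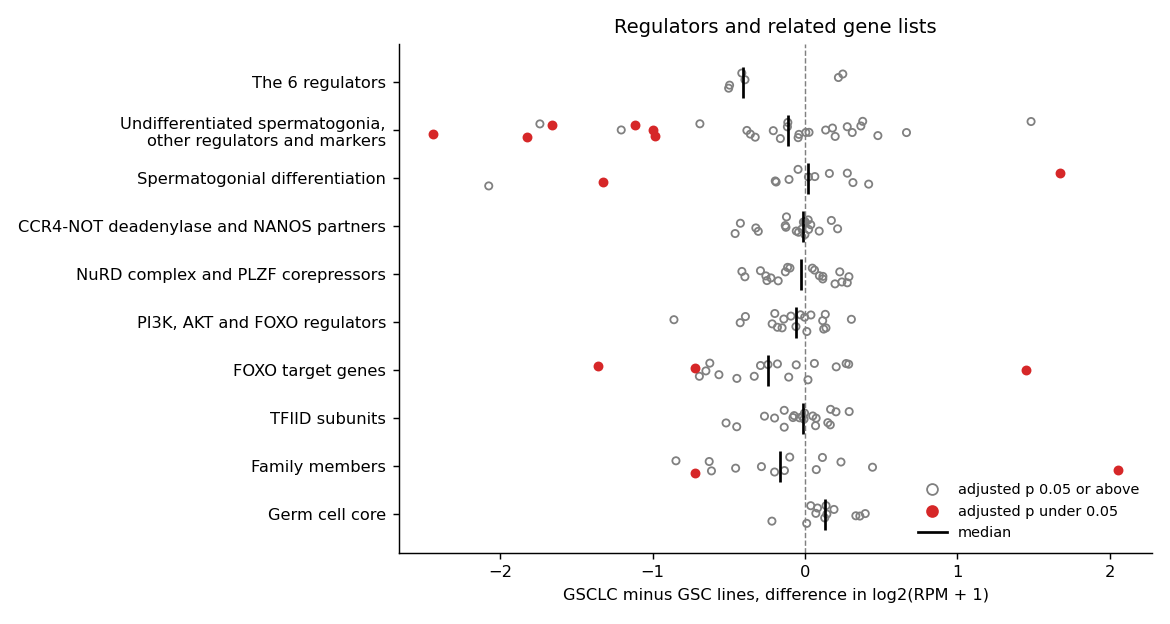
Difference in log2(RPM + 1) between GSCLC and GSC lines (horizontal axis) for the 6 regulators and the tested genes of each related list; points are genes, filled where adjusted p was under 0.05, and black bars are medians. The 6 regulators lie between -0.50 and 0.25 with none filled, and the filled points of the undifferentiated spermatogonia list all lie below 0.

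In bulk RNA, fewer cells of a type and less RNA per cell cannot be told apart, and some somatic markers differed between the groups as well. Fibroblast markers, with 11 of 12 reaching 5 RPM, summed to 394 to 772 RPM in GSC and 368 to 628 RPM in GSCLC libraries. Leydig and peritubular markers, with 4 of 11 reaching 5 RPM in each kind, summed to 37 to 136 and 16 to 53.2 RPM, with Cyp17a1 and Lhcgr at 0 throughout. In GSC_1 and GSC_2 these sums were 94.9 and 136 RPM in replicate 1 and 38.5 and 37 RPM in replicate 2. Macrophage and endothelium markers summed to 25.4 to 36.7 RPM in GSC and 11.9 to 24.6 RPM in GSCLC libraries, with 4 and 3 of 10 reaching 5 RPM. The sums did not overlap. Such a separation held for 7.07% of single tested genes, which is not a background for sums over a list. Fcer1g alone averaged 11.3 ± 5.76 RPM over GSC and 0.103 ± 0.135 RPM over GSCLC lines. It reached 18.9 RPM in its highest GSC library, and whether the sums stay apart without it was not examined. Cd68, Pecam1 and Kdr were also lower in GSCLC lines but did not pass (adjusted p = 0.479, 0.698 and 0.549). Tek was level, Csf1r, Adgre1, Cdh5 and Emcn were near 0, and Ptprc was higher, at 1.53 and 2.48 RPM. Sertoli markers, with 3 and 6 of 12 reaching 5 RPM and Amh at 0, summed to 40.1 to 146 and 27 to 132 RPM, and the 2 GSCLC_4 libraries held the highest GSCLC sums at 132 and 118 RPM. Single genes made up much of the highest sums. Rhox5 averaged 19.0 ± 33.2 RPM over GSCLC lines and reached 69.4 RPM, above the whole sum of any GSCLC library outside GSCLC_4. Clu reached 130 RPM in its highest GSC library. Of the somatic markers tested, Clu fell among 5 of Sertoli cells, Cyp11a1 and Hsd3b1 among 5 of Leydig and peritubular cells, Col5a1 among 11 of fibroblasts and Fcer1g among 4 of macrophages and endothelium, while Twist1 of the fibroblast list rose. Cyp11a1, the first enzyme of steroid synthesis, averaged 25.4 ± 8.11 RPM over GSC lines and 0.127 ± 0.177 RPM over GSCLC lines, where Hsd3b1 was listed at 0. These SDs are over line means and leave out the spread between replicates. Cyp11a1 reached 60.1 RPM in its highest GSC library. Hsd3b1 averaged 19.4 RPM over GSC lines and reached 36.7 RPM. Cyp11a1, Hsd3b1 and Fcer1g passed the filter on low values through GSC libraries alone. Germ cell markers, with 12 of 12 reaching 5 RPM, summed to 2940 to 3790 and 2940 to 3930 RPM. The part of such cells in the levels of Foxo1, Sall4 or Zbtb16 was not tested.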

How the data were processed

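The authors deposited 1 table of RPM, in which the reads of each library are scaled to a common total, for 26219 genes in 12 libraries. SC3-seq, a 3′ end method, was run on 1 ng of total RNA per library with a SOLiD instrument, per the labels' protocols. The submitters' processing notes name the build mm10 (GRCm38) and, without roles, Cufflinks 2.2.0, TopHat 1.4.1 and cutadapt 1.3. Whether strand was used in counting, and with which gene models, is not given here, so sense and antisense reads may be mixed.

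The 11788 genes that reached 5 RPM in 2 or more libraries were taken as log2(RPM + 1). The 2 libraries of a line were averaged, and limma 3.58.1 in R 4.3.3, with a variance trend and Benjamini-Hochberg adjustment over all tested genes, compared 4 GSCLC lines with 2 GSC lines. Conditions 2 and 1 were compared in a fit of 3 groups over all 6 lines. Differences among lines were tested by limma's F test on the 12 single libraries. Low RPM values lay on even steps, with 99.7% to 99.9% whole within 0.1 of a step, but fractional values were also present, so that counts were not restored for all genes and no count test was run. A gene at 0 could still hold up to 3 reads, or 0.646 to 0.99 RPM; amplified reads are not independent molecules, so this limit and the Poisson intervals describe counting error alone. The fits were tested on simulated data.

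The members and gene lists were chosen with earlier results of these data known. Genes named are the 6 members, up to 4 genes past the threshold per list with the smallest adjusted p, the partners and markers set by name, and the 3 genes nearest to each member in pattern. Members were matched to RefSeq by Entrez identifier, 6 of 6, and list genes to the table by symbol or older symbol. The labels call the replicates of a line biological replicates of the culture. Alternatives covered the pseudocount, the filter, scaling, the variance trend, blocks, single libraries and each library or line left out.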

Additional observations from a re-analysis of the deposited data

Results flagged for a closer look

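Among the 4 GSC libraries, Sall4 in replicate 2 of GSC_1 stood apart at 105.9 RPM from the other 3 at 127 to 131 RPM, with a gap of 0.836 of the range against Dixon's 95% limit of 0.829. It was the 1 such case among 18 groups examined (GSC libraries, GSCLC libraries and GSCLC line means of the 6 genes), and chance gives about 1 in 20 groups.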

How the results depend on the processing

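Between GSCLC and GSC lines, 0 members passed in 27 of 29 alternatives; 2 passed without line GSCLC_4 (Sall4 and Foxo1) and 1 on single libraries with the line as a random block (Foxo1). The direction of all 6 differences held in every alternative run. Over all genes, libraries of equal number in different lines deviated from their line means with little correlation (Pearson r from -0.122 to 0.11 in 30 pairs). The 2 libraries of a line deviate equally and oppositely from their mean. Each r therefore appears once for number 1 and once for number 2, and the 30 are not separate values. The correlation does not describe particular genes. Leydig and peritubular markers summed higher in replicate 1 than in replicate 2 of both GSC lines (94.9 and 136 against 38.5 and 37 RPM). Among GSCLC lines only GSCLC_4 had the higher sum in replicate 1. With the replicate block 0 members passed between the kinds of line and 2 among lines, with 592 and 2435 genes called. Among lines, 1 member passed with all genes above 0 RPM, 0 without the variance trend, 1 without line GSC_2 and 1 without line GSCLC_2, and leaving out single libraries gave 1 to 3. The causes were not tested.

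Between conditions, 0 members passed in any alternative. The Nanos2 difference turned positive at 0.02335 with quantile scaling, 0.3122 without line GSCLC_3, 0.1321 without line GSCLC_4 and 0.4447 on libraries numbered 1 alone, and ran from -0.5545 to 0.3873 with single libraries left out. That of Nanos3 ran from -0.03287 to 0.5515 in the same way, and that of Foxo1 was 0.008011 on libraries numbered 2 alone. Nanos2 did not pass the 20 RPM filter, so that alternative gave it no value.

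Of all genes, 356 passed between the kinds of line, against 162 with all genes above 0 RPM, 212 with a 20 RPM filter, 199 without replicate 2 of GSCLC_4, 41 and 13 without lines GSC_1 and GSC_2, 211 and 209 without lines GSCLC_1 and GSCLC_2, 645 with the random block, and 114 and 178 on libraries numbered 1 and 2 alone. Between conditions the count rose from 0 to 11 without line GSCLC_2, and to 1 without line GSCLC_1, without line GSCLC_3 or on libraries numbered 2 alone. Among lines 2362 became 1244 with all genes above 0 RPM and 1334 without the variance trend. A count test was not run, since whole reads were not recovered for all genes. At 20 to 68 reads, depth limits Nanos2 most.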
